A study of Mus musculus with 6 samples.

Results

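B cell lymphomas of Eµ-Myc mice that carried the Ezh2 hairpin shEzh2.556 were set against premalignant Eµ-Myc B cells across 19190 of the 19938 genes on the arrays. The 748 genes on chromosomes X and Y were left out, and each gene was read from the probe set with its highest mean signal. Total RNA was hybridised to 6 Affymetrix Mouse Gene 1.0 ST arrays, 2 for each of 3 groups. All 3 groups carry the Eµ-Myc transgene, which places Myc under the immunoglobulin heavy chain enhancer and so drives it in B-lineage cells. The control group was splenic B cells sorted from Eµ-Myc mice before lymphoma, from 2 independent preparations, although 1 label field calls these cells normal. The other groups were primary lymphomas with a short hairpin RNA against Ezh2, shEzh2.781 in one and shEzh2.556 in the other. CD43-positive cells were removed from the lymphomas with beads, and flow cytometry then found 95% or more of the cells positive for B220 and GFP. The labels give no age or strain, and they leave unsaid whether the 2 arrays of each hairpin represent different animals, so p-values measure only the spread between these arrays, which may be technical. Lymphomas free of an Ezh2 hairpin were not analysed here. Malignancy, the hairpin and the way the cells were prepared therefore cannot be told apart in any difference from the premalignant cells, and shEzh2.781 lymphomas were the only other lymphomas available for comparison.

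Ezh2 is the catalytic subunit of polycomb repressive complex PRC2, which methylates histone H3 and keeps developmental genes silent. In early B cells it is highly expressed and is needed for normal immunoglobulin heavy chain rearrangement. Its partner complex, PRC1, reads the PRC2 mark and ubiquitylates histone H2A. Eµ-Myc lymphomas arise from a polyclonal pool of cycling B-lineage cells and vary in stage from pre-B to surface immunoglobulin-positive B cells.

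Signals were deposited on a log2 scale and every difference below is on that scale, with its standard error (SE) from a limma fit to the 6 arrays. A gene was called when its Benjamini-Hochberg adjusted p over all 19938 genes was below 0.05. The median signal of an array was 6.75 to 6.91. Replicates of the 3 groups differed by 2-fold or more at 22, 58 and 23 genes, in the order premalignant, shEzh2.781 and shEzh2.556. Because these are bulk samples, fewer cells of a type and less RNA per cell cannot be told apart.

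The target of the hairpin was lower in the lymphomas. Ezh2 signal was 12.64 and 12.70 in the premalignant arrays, 10.92 and 11.07 with shEzh2.781 and 11.20 and 11.30 with shEzh2.556. Both shEzh2.556 arrays lay below both premalignant arrays and slightly above both shEzh2.781 arrays. Ezh2 fell by 1.42 against premalignant cells (SE 0.11, limma adjusted p = 6.74e-06), while the difference from shEzh2.781 was 0.26 (SE 0.11, adjusted p = 0.151). Defining B cell genes were well expressed in all groups. Cd79a and Cd79b, which carry the signal of the B cell receptor, differed from premalignant cells by -0.05 (SE 0.12, adjusted p = 0.806) and 0.15 (adjusted p = 0.352), from levels above 12 in every array. The B cell factors Pax5 and Ebf1 fell by 0.46 and 0.59 but stayed at 11.56 and 11.48 on average, and the adjusted p of Pax5, 0.0157, was 0.0674 without premalignant replicate 2 and 0.0996 without shEzh2.556 replicate 1. Ptprc, which encodes CD45 and its B220 form, differed by -0.01 (adjusted p = 0.961), and Spn, the gene of the CD43 antigen used for depletion, by 0.18 (adjusted p = 0.289). Myc differed by 0.17 (adjusted p = 0.294) and Mycn by 0.14 (adjusted p = 0.422).

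Of the 19190 genes, 3482 were called between shEzh2.556 lymphomas and premalignant cells, 18.1% of those tested. Lower genes outnumbered higher ones, with 1315 higher (6.85%) and 2167 lower (11.3%). At 2-fold or more the counts were 234 (1.22%) and 419 (2.18%). The higher share of the calls was 37.8% on the deposited values, 47.1% after quantile normalization and 33.7% after centring each array on its median. Direction varied with signal. Among genes with mean signal above the median of all genes, 8.73% were higher and 17.9% lower, and among the dimmer genes 4.93% were higher and 4.49% lower. The median difference was 0.139 over the dimmer genes and -0.0715 over the brighter ones, so small rises of dim genes are read against that offset. With shEzh2.781, 2079 genes (10.8%) were called against the same premalignant arrays, or 1054 without premalignant replicate 2. Leaving out premalignant replicate 1 reduced the shEzh2.556 count to 2024 and leaving out shEzh2.556 replicate 1 reduced it to 1867.

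What set shEzh2.556 lymphomas apart from the other hairpin was tested directly. Between the hairpins 1921 genes were called (10%), 872 higher with shEzh2.556 (4.54%) and 1049 lower (5.47%). Genes called in the same direction against both premalignant cells and shEzh2.781 lymphomas are named here as particular to shEzh2.556. There were 1030 of them (5.37%), 387 higher (2.02%) and 643 lower (3.35%). Both tests use the same 2 shEzh2.556 arrays, so a deviation of those arrays enters both. The hairpin count was 1120, 1158, 684 and 915 without shEzh2.781 replicate 1, shEzh2.781 replicate 2, shEzh2.556 replicate 1 and shEzh2.556 replicate 2. The number of particular genes fell to 410 without shEzh2.556 replicate 1, 571 without its replicate 2, 640 without premalignant replicate 1 and 683 without shEzh2.781 replicate 1. After median centring, which moves the median difference between hairpins from 0.0709 to -0.0445, 205 particular genes were higher and 954 lower, and the hairpin comparison gave 392 higher and 1836 lower. Quantile normalization gave 381 and 450 particular genes, and 646 of the 1030 stayed particular in the same direction.

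The largest rises in shEzh2.556 lymphomas were in genes for proteins of saliva and related secretions. These genes normally belong to the acinar cells of salivary and lacrimal glands. Of the 12 largest rises, 10 were of this kind, and the same 10 headed the list of genes higher than in shEzh2.781 lymphomas. Mucl2, a mucin-like secreted protein, gave signals of 3.89 and 4.17 in premalignant arrays, 7.01 and 5.96 with shEzh2.781 and 11.35 and 11.01 with shEzh2.556. The 3 groups did not overlap, and the shEzh2.556 arrays were far above the rest. Mucl2 rose by 7.15 (SE 0.26, adjusted p = 1.24e-08), a 142-fold difference, and was 4.69 higher than with shEzh2.781 (SE 0.26, adjusted p = 1.21e-06). Bpifa2, the parotid secretory protein, read 4.94 and 5.80, then 7.34 and 8.05, then 11.82 and 11.32 in the same order of groups. It also stepped up from group to group without overlap, with a rise of 6.20 (SE 0.28, adjusted p = 5.88e-08) and a hairpin difference of 3.87 (adjusted p = 1.09e-05). Prol1, a proline-rich protein of lacrimal and salivary glands, read 4.47 and 4.59, 6.09 and 5.45, and 10.24 and 10.11. Its rise was 5.65 (SE 0.18, adjusted p = 3.13e-09).

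The other secretory genes were far higher on the shEzh2.556 arrays than on any other, and of these only Dcpp3 was also called between shEzh2.781 lymphomas and premalignant cells. Car6, the secreted carbonic anhydrase of saliva, read 5.53 and 5.71 in premalignant arrays, 6.18 and 5.87 with shEzh2.781 and 11.31 and 10.95 with shEzh2.556. It rose by 5.50 (SE 0.15, adjusted p = 1.83e-09) and was 34.5-fold higher than with shEzh2.781, where its difference from premalignant cells was 0.40 (adjusted p = 0.129). Pip, the prolactin-inducible protein of exocrine secretions, read 4.42 and 4.40, 4.70 and 4.68, and 9.81 and 9.29. Its rise of 5.14 (SE 0.15, adjusted p = 2.31e-09) left no overlap with any other array. The secretoglobins Scgb2b27 and Scgb1b27, small secreted dimer-forming proteins, rose by 4.87 (SE 0.12) and 4.73 (SE 0.16), and were 4.46 and 4.36 higher than with shEzh2.781. Scgb1b27 has 2 probe sets, and with their mean in place of the brighter one its rise was 3.13. The demilune cell and parotid protein genes Dcpp1, Dcpp2 and Dcpp3 rose by 5.13 (SE 0.24), 5.75 (SE 0.40) and 5.51 (SE 0.38), and were 4.80, 5.0 and 4.18 higher than with shEzh2.781. Dcpp1 was already at 6.78 and 7.08 in premalignant arrays, and reached 12.35 and 11.79 with shEzh2.556. Dcpp3 read 4.94 and 5.75 in premalignant arrays and 6.03 and 7.32 with shEzh2.781, a 2.52-fold rise with that hairpin (adjusted p = 0.0452). The 3 Dcpp genes lie close together on chromosome 17 and are near-identical copies, so how their signal divides between the probe sets is uncertain.

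**Figure D1:**
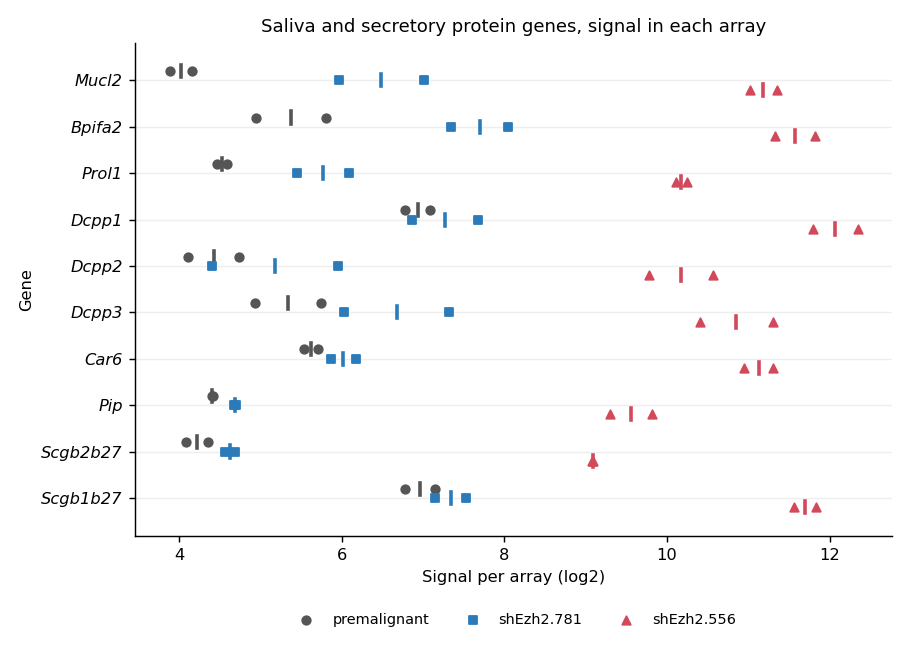
Signal (log2, horizontal axis) of 10 saliva and secretory protein genes in each of the 6 arrays, with points for arrays and short bars for group means of 2 arrays. All shEzh2.556 points lie above 9, and no point of the other groups lies above 8.05.

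The promoters of 6 of these genes are given to show how similar the Dcpp copies are and where CG dinucleotides lie in them. Each sequence runs 5′ to 3′ from 250 bases before to 50 bases after the gene's start, from RefSeq on GRCm38.p6, with CG dinucleotides in capitals, since polycomb complexes are best known from CG-rich promoters.
Dcpp1 (chr17:23880626-23880925, plus strand): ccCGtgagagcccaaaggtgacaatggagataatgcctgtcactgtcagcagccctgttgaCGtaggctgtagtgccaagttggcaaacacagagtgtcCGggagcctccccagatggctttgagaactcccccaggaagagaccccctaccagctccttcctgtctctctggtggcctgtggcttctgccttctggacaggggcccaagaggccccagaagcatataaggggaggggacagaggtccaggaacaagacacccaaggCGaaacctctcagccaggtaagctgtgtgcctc
Dcpp2 (chr17:23898472-23898771, plus strand): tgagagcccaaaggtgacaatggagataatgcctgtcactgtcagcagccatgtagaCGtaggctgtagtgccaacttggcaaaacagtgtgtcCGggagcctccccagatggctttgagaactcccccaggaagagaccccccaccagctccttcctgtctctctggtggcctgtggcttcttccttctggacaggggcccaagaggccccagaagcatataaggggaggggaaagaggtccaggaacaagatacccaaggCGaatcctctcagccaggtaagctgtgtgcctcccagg
Dcpp3 (chr17:23917208-23917507, plus strand): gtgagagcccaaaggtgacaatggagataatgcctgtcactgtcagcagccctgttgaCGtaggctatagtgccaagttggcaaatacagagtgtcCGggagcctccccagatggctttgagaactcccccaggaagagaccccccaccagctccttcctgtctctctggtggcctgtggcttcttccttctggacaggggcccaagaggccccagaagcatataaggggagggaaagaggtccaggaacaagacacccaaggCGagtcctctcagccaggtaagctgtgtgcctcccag
Car6 (chr4:150201086-150201385, minus strand): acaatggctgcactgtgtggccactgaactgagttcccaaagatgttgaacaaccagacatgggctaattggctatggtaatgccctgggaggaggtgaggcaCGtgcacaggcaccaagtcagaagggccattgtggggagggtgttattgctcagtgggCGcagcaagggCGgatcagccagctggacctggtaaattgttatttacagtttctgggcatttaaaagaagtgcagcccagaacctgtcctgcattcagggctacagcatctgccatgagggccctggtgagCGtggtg
Pip (chr6:41847299-41847598, plus strand): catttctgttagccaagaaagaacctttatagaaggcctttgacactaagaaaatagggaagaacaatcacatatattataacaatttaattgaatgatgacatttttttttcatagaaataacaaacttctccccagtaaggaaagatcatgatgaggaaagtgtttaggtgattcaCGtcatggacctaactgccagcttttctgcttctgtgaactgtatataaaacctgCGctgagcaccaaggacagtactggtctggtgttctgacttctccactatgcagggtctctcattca
Mucl2 (chr15:103899263-103899562, minus strand): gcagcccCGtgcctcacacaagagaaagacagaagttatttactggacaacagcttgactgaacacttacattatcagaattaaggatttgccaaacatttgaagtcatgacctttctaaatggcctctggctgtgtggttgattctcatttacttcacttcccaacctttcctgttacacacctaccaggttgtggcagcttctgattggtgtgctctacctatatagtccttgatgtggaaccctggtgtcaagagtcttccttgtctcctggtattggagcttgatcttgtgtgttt
The Dcpp promoters were 93.8% to 96.4% identical in pairs. The 6 promoters, of which the Dcpp ones are near copies, held 1 to 4 CG dinucleotides each. Medians were 15 over the 14959 genes with a promoter entry and 6 over the dimmer genes. Because entries were found for 78% of genes, these counts are a description and no test of promoter composition was made. Any part of polycomb complexes in the rise of these genes was not tested. The motif TATAAA, searched on both strands, was found in the promoter of Pip and not in the other 5. On the strand shown it lies at position -28 from the start of Pip. Its reverse complement, tttata, also occurs further upstream in that promoter. Only this exact motif was searched for, and each Dcpp promoter holds the related tataag, which the search leaves out. Of the 14959 promoters, 12.1% hold it.

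The rise extended to part of a wider list of salivary secretory genes. Of 24 measured, 14 were called higher and 2 lower in shEzh2.556 lymphomas against backgrounds of 6.85% and 11.3%, and all 16 were particular to this hairpin (the background for particular genes is 5.37%). The list was drawn up with earlier results of these data known and is not independent evidence. The median difference was 0.565 against 0.0713 over all genes. Beyond the 9 list members at 4.87 or more, the other 5 rose by 0.52 to 1.04, among them Muc19, a gel-forming salivary mucin. Ltf, which neutrophils also express, and Bhlha15, the acinar transcription factor Mist1, were the 2 that fell, by 3.61 and 1.25. The summed signal of the list on the linear scale was 2577 to 2921 in premalignant arrays, 2134 to 2495 with shEzh2.781 and 15827 to 22014 with shEzh2.556. Only 5 of the 14 higher genes had mean signal at or above the median of all genes.

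Some markers of gland epithelium were also higher, by much less. Of 23 measured, 7 were higher (30.4%, against 6.85% of all genes) and none lower, and 4 were particular to shEzh2.556 and higher. The list median was 0.274 against 0.139 for dim genes in general. Krt18, an epithelial keratin, rose by 0.88 (SE 0.12, adjusted p = 0.000343), and its difference from shEzh2.781 was -0.02. Ehf, an epithelial ETS factor, rose by 0.64 (adjusted p = 0.00301) from 5.54 and 5.67 to 6.36 and 6.14. The summed signal was 2318 to 2488 in premalignant arrays, 2613 to 2651 with shEzh2.781 and 2903 to 3079 with shEzh2.556. The count fell to 3 without premalignant replicate 1 and to 4 without shEzh2.556 replicate 1. Whether gland tissue in the samples has a part in the secretory signal was not tested.

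Other large rises were found with both hairpins. Cpn1, the catalytic subunit of carboxypeptidase N, was at 5.81 and 5.71 in premalignant arrays and at 11.60 and 11.67 with shEzh2.556. It rose by 5.88 (SE 0.11, adjusted p = 1.13e-10), and its difference from shEzh2.781 was 0.05 with a 95% interval of -0.20 to 0.30. Hepacam2, an adhesion molecule of the immunoglobulin superfamily, rose by 4.66 (SE 0.14), with a hairpin difference of 0.21 (95% interval -0.09 to 0.50). Neither was therefore particular to shEzh2.556.

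Gadd45a had the largest hairpin difference outside the secretory genes. It encodes a stress-induced protein of growth arrest and DNA repair and is a target of p53. Its signal was 8.19 and 8.11 in premalignant arrays, 7.60 and 7.59 with shEzh2.781 and 11.11 and 10.95 with shEzh2.556. The hairpins lay on opposite sides of the premalignant cells, without overlap. Gadd45a rose by 2.88 with shEzh2.556 (SE 0.11, adjusted p = 2.54e-08), and exceeded shEzh2.781 by 3.43 (SE 0.11, adjusted p = 9.85e-09), 10.8-fold. Slc15a2, a peptide transporter, showed the same order, with 6.79 and 7.56, then 5.80 and 5.50, then 8.37 and 8.76. It rose by 1.39 (SE 0.22, adjusted p = 0.000954) and was 2.91 higher than with shEzh2.781. Among 26 measured p53 target genes, 3 were higher (11.5%) and 7 lower (26.9%), so the rise of Gadd45a was not general to the list. Of the 26, 23 lie among the brighter genes, of which 8.73% were higher and 17.9% lower. With shEzh2.781 the list also gave 3 higher and 7 lower. Ccng2, an atypical cyclin, fell by 1.34, and Mdm2, which encodes the ligase that degrades p53, fell by 0.54 (adjusted p = 0.00716, and 0.0735 without shEzh2.556 replicate 1). Cdkn2a, the Ink4a and Arf locus, differed by 0.04 (adjusted p = 0.863).

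A few further genes that rose were picked after their values were seen. S100a6 and Anxa2, a calcium-binding protein and a partner annexin family member, rose by 3.82 (SE 0.16) and 2.33 (SE 0.18). Both also stood 1.98 and 1.78 above shEzh2.781. Gpr176, an orphan receptor, rose by 2.85 and exceeded shEzh2.781 by 2.44, and Cdh17, a cadherin of intestinal epithelium and some B cells, rose by 3.02 and exceeded it by 2.14.

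Among genes lower than in both other groups, Mei4 had the largest hairpin difference. Mei4, which is needed for meiotic DNA breaks, read 9.42 and 9.36 in premalignant arrays, 9.36 and 8.82 with shEzh2.781 and 6.05 and 6.16 with shEzh2.556. The first 2 groups were close and the shEzh2.556 arrays lay far lower. Mei4 fell by 3.28 (SE 0.16, adjusted p = 1.13e-07) and was 7.88-fold lower than with shEzh2.781 (adjusted p = 8.17e-07). Slc30a4, a zinc exporter, read 8.97 and 9.05, 8.34 and 8.02, and 5.72 and 5.12. It fell by 3.59 (SE 0.18, adjusted p = 1.7e-07) and was 2.75 lower than with shEzh2.781. Pkp4, a plakophilin of cell junctions, fell by 2.39 (SE 0.15), and Atp1b1, a sodium pump subunit, fell by 3.30 (SE 0.20), with hairpin differences of -2.10 and -1.43.

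Another set lay below premalignant cells with shEzh2.556 and above them with shEzh2.781. Plag1, a zinc-finger transcription factor of fetal growth, read 6.94 and 6.72 in premalignant arrays, 7.68 and 7.89 with shEzh2.781 and 5.24 and 5.11 with shEzh2.556. The groups did not overlap. Plag1 fell by 1.65 (SE 0.13, adjusted p = 4.95e-06) and was 2.61 below shEzh2.781 (adjusted p = 4.74e-07). Cldn10, a tight junction claudin, read 10.27 and 9.83, 11.09 and 10.39, and 8.62 and 8.56. It fell by 1.45 (adjusted p = 0.000396) and its hairpin difference was -2.15. Rasgef1a, a Ras family exchange factor, read 7.11 and 7.68, 9.84 and 9.60, and 6.68 and 6.84. Its difference from shEzh2.781 was -2.96 (SE 0.17, adjusted p = 1.95e-06). Its smaller fall of 0.63 from premalignant cells (adjusted p = 0.0253) had an adjusted p of 0.142 without premalignant replicate 2, 0.167 without shEzh2.556 replicate 1 and 0.0585 without shEzh2.556 replicate 2. Igf1r, the receptor for insulin-like growth factors, was 1.93 below shEzh2.781 (SE 0.17, adjusted p = 6.35e-05) and differed from premalignant cells by -0.52 (adjusted p = 0.0561). That last value was called without shEzh2.556 replicate 2, at an adjusted p of 0.00421, and without either shEzh2.781 array, at 0.0242. No RefSeq promoter entry was matched for Plag1.

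**Figure D2:**
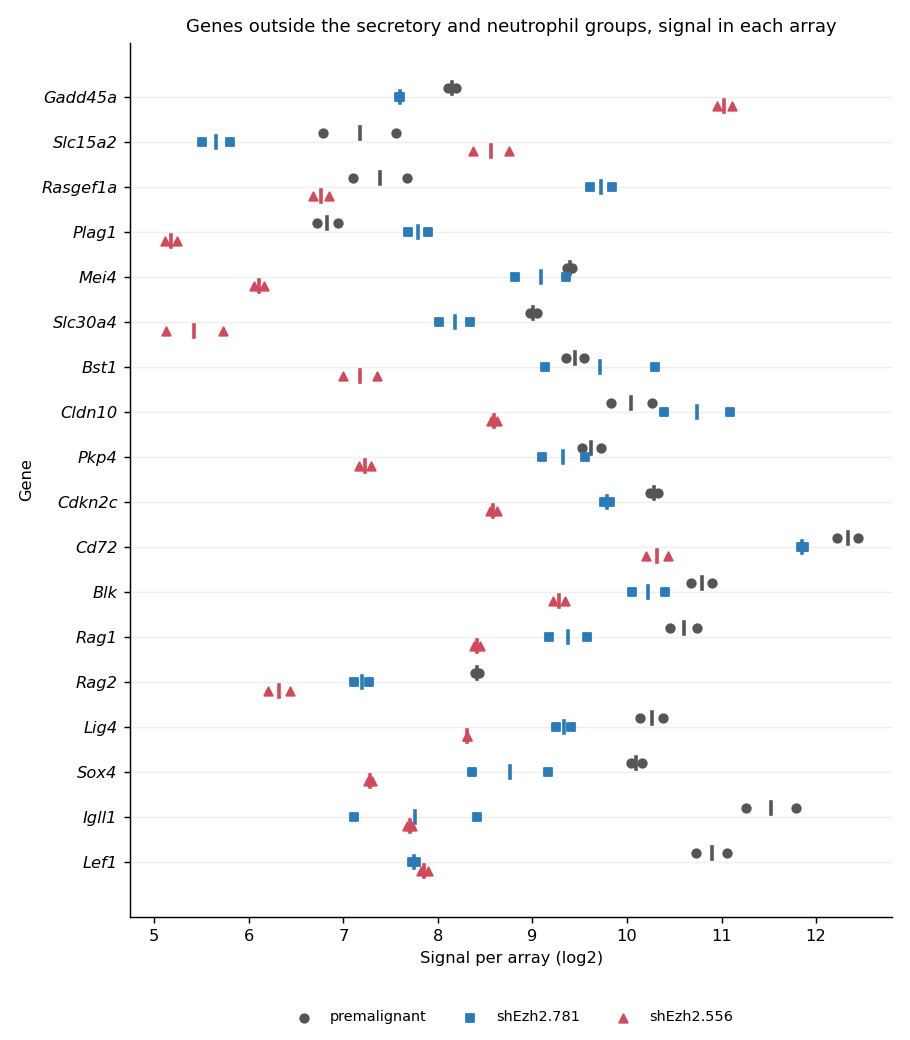
Signal (log2, horizontal axis) of 18 named genes outside the secretory and neutrophil groups in each of the 6 arrays, with points for arrays and short bars for group means of 2 arrays. In Gadd45a and Slc15a2 the shEzh2.556 arrays are highest, in the genes from Rasgef1a to Sox4 they are lowest, and in Igll1 and Lef1 they lie among or next to the shEzh2.781 arrays.

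Genes of early B cell stages were lower in shEzh2.556 lymphomas. Pre-B cells carry a surrogate light chain made of Igll1 and Vpreb proteins, and rearrange their immunoglobulin genes with the Rag recombinase. Igll1 read 11.26 and 11.79 in premalignant arrays, 8.41 and 7.11 with shEzh2.781 and 7.68 and 7.73 with shEzh2.556. The lymphoma groups overlapped each other and lay far below premalignant cells. Igll1 fell by 3.82 (SE 0.31, adjusted p = 7.52e-06), with a hairpin difference of -0.06 (95% interval -0.74 to 0.63). Vpreb1 fell by 1.14 (adjusted p = 7.02e-05). Of 24 measured pro-B and pre-B genes, 17 were lower (70.8%, against 11.3% of all genes) and 1 higher, with a median of -0.722. Of the 24, 18 lie among the brighter genes, of which 17.9% were lower. With shEzh2.781, 13 of the 24 were lower than in premalignant cells. Lef1, a pro-B cell transcription factor, fell by 3.04 (SE 0.13, adjusted p = 3.9e-08), Dntt, the polymerase that adds junctional nucleotides, by 2.58, and Enpep, the BP-1 antigen, by 1.98. These 3 did not differ in call between hairpins, with differences of 0.11, 0.14 and 0.05.

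Within this programme the recombination genes were lower still than with shEzh2.781. Of 13 V(D)J recombination and end-joining genes, 7 were lower than in premalignant cells (53.8%, against 11.3% of all genes) and none higher. Against shEzh2.781, 6 were lower (46.2%, against 5.47% of all genes), and 5 genes, Rag1, Rag2, Lig4, Polm and Xrcc6, were particular to shEzh2.556. Of the 13, 12 lie among the brighter genes, of which 17.9% were lower than in premalignant cells and 9.31% lower than with shEzh2.781. Rag1 read 10.46 and 10.74 in premalignant arrays, 9.57 and 9.17 with shEzh2.781 and 8.45 and 8.38 with shEzh2.556, a descending order without overlap. It fell by 2.19 (SE 0.15, adjusted p = 2.02e-06) and was 0.96 below shEzh2.781 (SE 0.15, adjusted p = 0.00259). Rag2, its partner, fell by 2.09 and was 0.88 below shEzh2.781. Lig4, the ligase that joins the broken ends, fell by 1.95 and was 1.02 below. Polm, an end-joining polymerase, fell by 1.31 and was 0.87 below, and Xrcc6, the Ku70 end-binding protein, fell by 0.88 and was 0.67 below. The Xrcc6 hairpin difference had an adjusted p of 0.0602 without shEzh2.781 replicate 1 and 0.0659 without shEzh2.556 replicate 2, against 0.00911 with all arrays. Sox4, a factor of pro-B cell survival, fell by 2.82 and was 1.49 below shEzh2.781. Il7r, the receptor chain for the pre-B growth factor interleukin 7, fell by 1.69 and was 1.89 below, while shEzh2.781 lymphomas differed from premalignant cells by 0.20 (adjusted p = 0.672). Bst1, a surface enzyme of early B and myeloid cells, fell by 2.27 and was 2.54 below.

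B-lineage regulators and receptor signalling were partly lower as well. Of 26 transcription factors of the lineage, 14 were lower (53.8%) and 2 higher (7.69%), with a median of -0.454. Of the 26, 25 lie among the brighter genes, of which 17.9% were lower and 8.73% higher. Bach2, a repressor that holds back plasma cell fate, fell by 1.33 (SE 0.11), and Irf4, a factor of pre-B exit and plasma cells, by 1.01 (SE 0.12). Irf4 and Gfi1, a repressor of early lymphoid and myeloid cells that fell by 0.76, were also 0.74 and 0.63 below shEzh2.781. The count of 14 fell to 9 without premalignant replicate 2 or without shEzh2.556 replicate 1. Among 34 coreceptor and signalling genes, 5 were higher (14.7%) and 10 lower (29.4%), and 31 of the 34 lie among the brighter genes. Cd72, an inhibitory coreceptor, read 12.22 and 12.44 in premalignant arrays, 11.84 and 11.87 with shEzh2.781 and 10.43 and 10.20 with shEzh2.556. It fell by 2.02 (SE 0.13, adjusted p = 1.11e-06) and was 1.54 below shEzh2.781 (adjusted p = 3.74e-05). Blk, a Src family kinase of B cells, fell by 1.50 and was 0.94 below. Fcgr2b, the inhibitory Fc receptor, and Bank1, a signalling scaffold, rose by 1.69 and 1.72 and did not differ in call between hairpins. Without shEzh2.556 replicate 1 the list gave 3 higher and 6 lower, and without premalignant replicate 1 it gave 3 higher.

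Some markers of more mature B cells were higher. Of 25 measured, 8 were higher (32%, against 6.85% of all genes), 2 lower (8%, against 11.3%) and 15 not called. The list median of 0.098 was near the 0.0713 of all genes. Of the 25, 18 lie among the brighter genes, of which 8.73% were higher. With shEzh2.781, 3 of the list were higher and 3 lower than in premalignant cells. Zbtb32, a repressor found in memory and activated B cells, read 7.39 and 7.36 in premalignant arrays, 8.85 and 8.99 with shEzh2.781 and 10.33 and 10.75 with shEzh2.556. The 3 groups rose in that order without overlap. Zbtb32 rose by 3.17 (SE 0.14, adjusted p = 6.22e-08) and exceeded shEzh2.781 by 1.62 (adjusted p = 5.86e-05). Ahnak, a large scaffold protein, rose by 2.24 and Itgb7, an integrin of homing lymphocytes, by 1.14. Cd1d1, which presents lipids and marks marginal zone B cells, fell by 1.96 and was 0.78 below shEzh2.781. The count of 8 fell to 5 without premalignant replicate 1 or without shEzh2.556 replicate 2. In 13 plasma cell genes 3 were higher and 3 lower (23.1% each). Brighter genes make up 11 of these 13, and 8.73% of all brighter genes were higher and 17.9% lower. The lower share is therefore near the background. Slamf7 fell by 1.53, and the secretory pathway genes Mzb1 and Fkbp11 rose by 0.79 and 1.09. Of 13 germinal centre genes none was higher and 3 were lower (23.1%), among them Mybl1, which fell by 1.12. Of the 13, 7 lie among the brighter genes, of which 17.9% were lower. Bcl6, the master repressor of that stage, differed by -0.04 (adjusted p = 0.882).

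Mitotic genes were broadly lower. Of 44 measured, 31 were lower (70.5%, against 11.3% of all genes) and none higher, with a median of -0.50. All 44 lie among the brighter genes, where the share lower was 17.9%. Cdc25b, a phosphatase that activates mitotic kinases, fell by 1.63 (SE 0.12, adjusted p = 2.97e-06), and the spindle genes Dlgap5, Nek2 and Nusap1 fell by 0.91, 0.80 and 0.69. None of the 44 differed in call between hairpins. The number lower was 16 without premalignant replicate 1, 20 without premalignant replicate 2 and 14 without shEzh2.556 replicate 1. DNA replication genes had 9 of 48 lower (18.8%), a median of -0.21 and none higher. All 48 lie among the brighter genes, of which 17.9% were lower, so this share is near the background. Against shEzh2.781, 8 of 48 were lower (16.7%, against 9.31% of the brighter genes). Rfc3, a clamp loader subunit, fell by 0.78 and was 0.96 below shEzh2.781. These replication counts were unstable, at 2 or 3 without premalignant replicate 1, shEzh2.556 replicate 1 or shEzh2.556 replicate 2 against premalignant cells, and at 1 or 2 without any one lymphoma array between hairpins. Quantile normalization left 5 and 2.

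Inhibitors of the cell cycle were among the genes that fell. Of 25 cyclin, inhibitor and E2F genes, 11 were lower (44%) and 2 higher (8%). All 25 lie among the brighter genes, of which 17.9% were lower and 8.73% higher. Cdkn2c, the p18 inhibitor of Cdk4 and Cdk6, read 10.24 and 10.33 in premalignant arrays, 9.82 and 9.75 with shEzh2.781 and 8.55 and 8.62 with shEzh2.556. It fell by 1.70 (SE 0.11, adjusted p = 1.35e-06) and was 1.20 below shEzh2.781 (adjusted p = 7.29e-05), with no overlap of groups. Cdkn1b, the p27 inhibitor, fell by 0.88 and was 0.68 below shEzh2.781. Cdk6 fell by 1.47 and E2f2 by 0.99, while Ccnd1, the cyclin partner of Cdk4 and Cdk6, rose by 1.26 (SE 0.11) as it did with shEzh2.781. Among 14 survival genes of the BCL2 family, 1 was higher (7.14%) and 1 lower (7.14%). The list has 12 brighter genes, and 8.73% of all brighter genes were higher and 17.9% lower, so neither share exceeds that background. The rise was that of Bcl2, at 0.91 (SE 0.17, adjusted p = 0.00283). The fall was that of Bcl2l1, which encodes Bcl-xL, at 1.10.

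Glycolysis genes were more often higher than lower. Of 20 measured, 7 were higher (35%, against 6.85% of all genes) and 2 lower (10%, against 11.3%), with a median of 0.191. Of the 20, 17 lie among the brighter genes, of which 8.73% were higher and 17.9% lower. Aldoa, the aldolase, read 11.45 and 11.48 in premalignant arrays, 11.32 and 11.53 with shEzh2.781 and 12.17 and 12.14 with shEzh2.556, so it was raised with this hairpin by 0.69 (adjusted p = 0.00148) and by 0.73 over shEzh2.781 (adjusted p = 0.00295). Eno2, a neuronal-type enolase, rose by 0.77 and the glucose carrier Slc2a1 by 0.71. Without shEzh2.556 replicate 1 the glycolysis counts were 4 higher and 0 lower, and without premalignant replicate 2 they were 5 and 1. Of 44 ribosome biogenesis genes, 7 were higher by 0.35 to 0.49 and none lower, but the count was 0 or 1 when any premalignant or shEzh2.556 array was left out, 2 after median centring, 3 with the replicate number as a block and 11 after quantile normalization. The 7 ribosome biogenesis genes were 15.9% of a list that lies wholly among the brighter genes, of which 8.73% were higher. In the MYC network 11 of 13 genes lie among the brighter ones, of which 17.9% were lower. Lower genes were 3 (23.1%), a share near that background, and none was higher. The Max partner Mxd3 led the 3 lower genes of the MYC network, falling by 0.99. That count was 1 without premalignant replicate 2, shEzh2.556 replicate 1 or shEzh2.556 replicate 2, and after quantile normalization. Of 26 genes of nucleotide and folate metabolism 2 were higher, or 7.69%, near the 6.85% of all genes. The 2 became 1 without premalignant replicate 2 or either shEzh2.556 array and after median centring, and 5 after quantile normalization. Slc19a1, the folate carrier, was one of them and rose by 0.72.

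**Figure D3:**
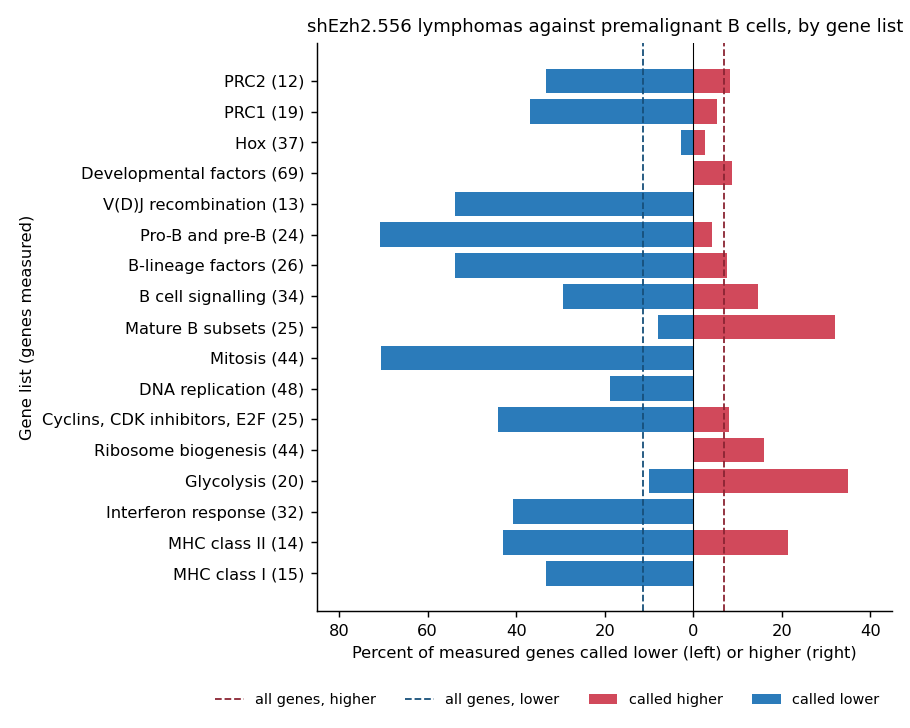
Percent of each gene list called higher (red, right) or lower (blue, left) in shEzh2.556 lymphomas against premalignant B cells, with the number of genes measured in brackets and dashed lines at the 6.85% and 11.3% of all genes. The pro-B and pre-B and mitosis lists reach about 70% lower, while mature B subset and glycolysis genes show the largest shares higher.

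PRC2 genes other than Ezh2 changed modestly. Of 12 PRC2 genes with Ezh2 included, 4 were lower (33.3%) and 1 higher (8.33%), and none was called between hairpins. All 12 lie among the brighter genes, of which 17.9% were lower and 8.73% higher. Beside Ezh2 itself the lower genes were Mtf2, an accessory subunit that fell by 0.44, the histone-binding subunit gene Rbbp4, which fell by 0.43, and Suz12. Epop, another accessory subunit, rose by 0.55. The adjusted p of Mtf2 was 0.114 without premalignant replicate 1 and 0.155 without shEzh2.556 replicate 1, that of Rbbp4 was 0.18 and 0.15 without premalignant replicate 1 and shEzh2.556 replicate 2, and that of Epop was 0.0601 without shEzh2.556 replicate 1. Suz12, a core subunit, fell by 0.39 (adjusted p = 0.0272), but its adjusted p lay between 0.0554 and 0.15 when any premalignant or shEzh2.556 array was left out. Eed, the third core subunit, differed by -0.04 (adjusted p = 0.844) and the alternative methyltransferase Ezh1 by 0.01 (adjusted p = 0.956). The PRC2 count of 4 was 1 without premalignant replicate 1 and 2 without either shEzh2.556 array. Of 19 PRC1 genes, all among the brighter ones, 7 were lower (36.8%) and 1 higher (5.26%). Pcgf5, a subunit of variant PRC1, fell by 1.20 (SE 0.11, adjusted p = 1.65e-05) and was 0.79 below shEzh2.781 (adjusted p = 0.00117). Cbx2, which reads the PRC2 mark, fell by 0.97 and was not called between hairpins. Bmi1, a ring finger subunit of canonical PRC1, differed from premalignant cells by 0.26 and was 1.18 lower than with shEzh2.781. Among 27 other histone and DNA modifiers, 26 of them brighter genes, 9 were lower (33.3%) and none higher. Tet1, which oxidises methylated cytosine, read 9.16 and 9.14 in premalignant arrays, 6.38 and 6.41 with shEzh2.781 and 6.28 and 6.01 with shEzh2.556. It fell by 3.01 (SE 0.12, adjusted p = 2.7e-08). The methyltransferase Dnmt3a fell by 0.84. Without shEzh2.556 replicate 1 the modifier count was 4.

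The gene classes that PRC2 is best known to silence showed few calls. Of 37 Hox genes, which pattern the body axis, 1 was higher and 1 lower (2.7% each). Among the dimmer genes 4.93% were higher and 4.49% lower. The Hox median of 0.154 is close to the 0.139 of dim genes in general. Of 69 other developmental transcription factors, 6 were higher and none lower, or 8.7% against 6.85% of all genes, with a median of 0.224. Only 13 of the 69 lie among the brighter genes, so the 4.93%, 4.49% and 0.139 of the dimmer genes are the closer background. Foxf2, a forkhead factor of mesenchyme, made the one large rise. Its signal was 7.18 and 6.93 in premalignant arrays, 11.50 and 11.51 with shEzh2.781 and 11.16 and 11.44 with shEzh2.556. Foxf2 rose by 4.25 (SE 0.13, adjusted p = 3.13e-09), and its difference from shEzh2.781 was -0.20 (95% interval -0.49 to 0.09). The other 5 rose by 0.37 to 0.52. The count of 6 fell to 1 when only genes at or above the median signal were kept or without shEzh2.556 replicate 1, to 2 without premalignant replicate 1 and to 3 after median centring. The promoters of Foxf2, the large rise of this list, and of Gadd45a, the largest hairpin difference outside the secretory genes, are shown to set beside those above.
Gadd45a (chr6:67037358-67037657, minus strand): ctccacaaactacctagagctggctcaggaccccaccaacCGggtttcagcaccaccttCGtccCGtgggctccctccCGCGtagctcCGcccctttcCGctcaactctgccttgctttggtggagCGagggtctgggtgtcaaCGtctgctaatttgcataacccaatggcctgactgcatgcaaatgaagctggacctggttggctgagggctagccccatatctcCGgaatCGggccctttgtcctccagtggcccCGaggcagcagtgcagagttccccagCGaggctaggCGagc
Foxf2 (chr13:31625566-31625865, plus strand): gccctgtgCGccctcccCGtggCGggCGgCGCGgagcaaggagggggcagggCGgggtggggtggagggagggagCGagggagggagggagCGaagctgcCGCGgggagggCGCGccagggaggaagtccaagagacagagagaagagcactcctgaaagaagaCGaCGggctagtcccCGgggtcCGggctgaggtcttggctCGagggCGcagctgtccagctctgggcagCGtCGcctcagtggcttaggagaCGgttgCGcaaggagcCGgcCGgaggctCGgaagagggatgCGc
That of Foxf2 held 27 CG dinucleotides, above the median of 15 over all genes with an entry, and that of Gadd45a held 14, just below it. Neither held TATAAA.

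Interferon response genes were lower. Of 32 interferon response genes, 13 were lower (40.6%, against 11.3% of all genes) and none higher, with a median of -0.345. Of the 32, 20 lie among the brighter genes, of which 17.9% were lower. With shEzh2.781, 11 of the 32 were lower than in premalignant cells. Ddx58, which encodes the RNA sensor RIG-I, fell by 1.26 (SE 0.14) and Irf7, a factor that amplifies the response, by 0.72. The count was 8 without premalignant replicate 1, 7 without premalignant replicate 2 and 6 without shEzh2.556 replicate 1. Of 24 NF-kB pathway genes, 3 were higher and 3 lower (12.5% each), with a median of -0.03 that was 0.03 after quantile normalization. Over all genes 6.85% were higher and 11.3% lower, so the lower share is near the background. The 3 higher became 1 when premalignant replicate 1 or either shEzh2.556 array was left out. Tnfaip3, which encodes the NF-kB inhibitor A20, fell by 1.51, and the cytokine gene Tnf rose by 1.04 (adjusted p = 0.000294). Of 32 immediate-early genes, 2 were higher and 7 lower, or 21.9%, with a median of -0.16. The list has 23 brighter genes, and 17.9% of all brighter genes were lower, so this share is near the background. The 7 became 12, and the 2 became 1, without premalignant replicate 1. Zfp36 of that list, which destabilises cytokine messages, fell by 1.13. In the antigen presentation genes, 6 of 14 MHC class II genes were lower (42.9%) and 3 higher (21.4%). All 14 lie among the brighter genes, of which 17.9% were lower and 8.73% higher. Ciita, the class II transactivator, fell by 1.28 and its target H2-Aa by 0.81, whereas Ifi30, a thiol reductase of antigen processing, rose by 1.08. Of 15 MHC class I genes, also all brighter ones, 5 were lower (33.3%) and none higher. Of the 5, 4 were also below shEzh2.781 (26.7% of the list, against 9.31% of the brighter genes). H2-Q4, a nonclassical class I gene, fell by 0.88 and was 0.79 below. The 5 became 1 without premalignant replicate 1, 2 without premalignant replicate 2 or shEzh2.556 replicate 2, 3 without shEzh2.556 replicate 1 and 2 after quantile normalization, and the 4 became 2 without shEzh2.781 replicate 1 and 1 without shEzh2.556 replicate 2.

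Granulocyte genes made up much of the list of largest falls. Of 23 measured neutrophil markers, 20 were lower in shEzh2.556 lymphomas than in premalignant cells and 16 were lower than in shEzh2.781 lymphomas. These shares are 87% and 69.6%, against 11.3% and 5.47% of all genes. Ngp, a neutrophil granule protein, read 11.35 and 11.45 in premalignant arrays, 9.75 and 10.50 with shEzh2.781 and 8.30 and 7.23 with shEzh2.556. The groups descended without overlap. Ngp fell by 3.63 (SE 0.29, adjusted p = 6.84e-06) and was 2.36 below shEzh2.781 (adjusted p = 0.000607). Lcn2, S100a8, Mmp8, Retnlg and Ltf, products of neutrophils and their granules, fell by 3.10 to 3.61, and the chemokine receptor Cxcr2 and the lectin Chil3 by 2.29 and 2.75. The summed neutrophil signal was 12193 to 14048 in premalignant arrays, 5022 to 7960 with shEzh2.781 and 1851 to 2644 with shEzh2.556. Ly6a2 fell by 3.23 and was 1.56 below shEzh2.781. Of 8 eosinophil markers, 5 were lower (62.5%), and none was called between hairpins. Ear6, an eosinophil ribonuclease, read 9.33 and 9.34 in premalignant arrays and 5.58 and 5.56 with shEzh2.556. It fell by 3.76 (SE 0.11, adjusted p = 2.31e-09) with a hairpin difference between -0.24 and 0.23 (95% interval). Epx and Prg2, granule proteins of eosinophils, fell by 2.65 and 2.74.

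Other non-B cells differed between the groups in their own ways. Over all genes, 6.85% were higher and 11.3% lower than in premalignant cells, and 4.54% were higher than with shEzh2.781. None of 14 erythroid markers was called against premalignant cells, but 13 (92.9%) were higher than with shEzh2.781, with a median of 1.19. The summed erythroid signal was 5899 to 6740 in premalignant arrays, 3579 to 4027 with shEzh2.781 and 5224 to 6319 with shEzh2.556. Without shEzh2.556 replicate 1 the hairpin count was 8. Rhd, a red cell membrane protein, exceeded shEzh2.781 by 1.31 (adjusted p = 0.000654). Plasmacytoid markers were lower at 4 of 7 (57.1%), with Siglech, their surface lectin, down by 2.61. In the lists that follow, 45.5% of platelet, 33.3% of NK cell and 22.7% of T cell markers were lower. Shares higher were 13.6% for T cells, 26.1% for macrophages and 14.3% for stromal and endothelial markers, or 33.3% for the last against shEzh2.781. Of 11 platelet markers 5 were lower, and 3, 3 and 2 without premalignant replicate 2, shEzh2.556 replicate 1 and shEzh2.556 replicate 2. Among 18 NK cell markers 6 were lower, or 3 without shEzh2.556 replicate 2. The T cell list gave 3 higher and 5 lower of 22, and 1 higher without premalignant replicate 1 or shEzh2.556 replicate 1. Of 23 macrophage markers 6 were higher and 1 lower, and 3 were higher without shEzh2.556 replicate 1. Hmox1, the haem oxygenase of red pulp macrophages, rose by 0.76 and exceeded shEzh2.781 by 0.89. Stromal and endothelial markers were higher at 3 of 21, or 1 without premalignant replicate 1, and at 7 of 21 against shEzh2.781, or 4 without either shEzh2.556 array and after median centring. Acta2, smooth muscle actin, read 6.93 and 7.04 in premalignant arrays, 7.15 and 6.80 with shEzh2.781 and 8.14 and 8.54 with shEzh2.556, a rise of 1.35 (SE 0.16, adjusted p = 0.000101). No marker signal reads as 0 on these arrays. The part of residual granulocytes, red cells, stroma or other cells in the differences of the B-lineage and secretory genes was not tested.

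**Figure D4:**
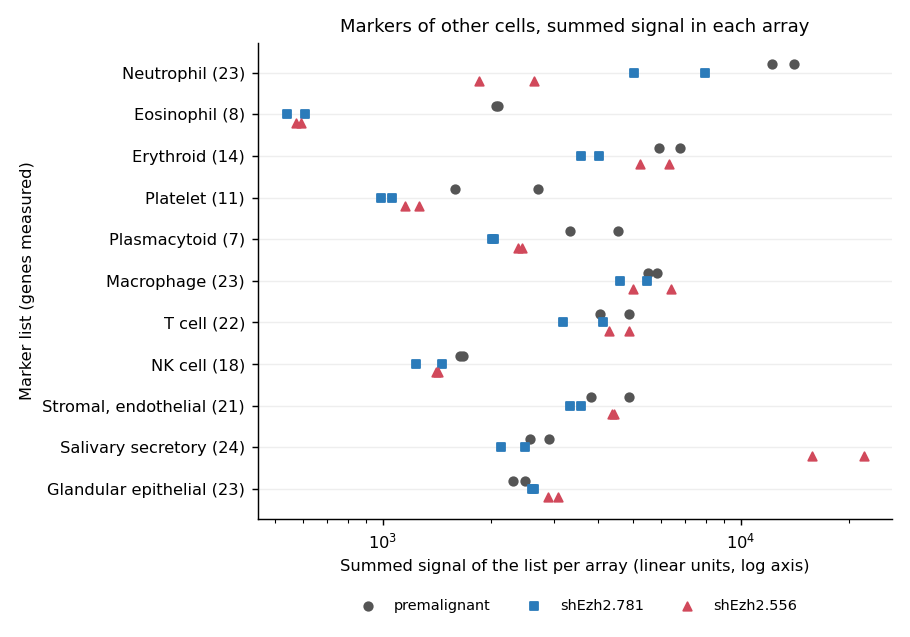
Summed signal of 11 marker lists of other cells in each of the 6 arrays (linear units, log axis), with the number of genes measured in brackets. The shEzh2.556 arrays are lowest for neutrophil markers at 1851 and 2644 and highest for salivary secretory genes at 15827 and 22014.

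Differences were also summed up by chromosome. The median difference of all genes of an autosome from the premalignant mean ranged from 0.0231 on chromosome 13 to 0.1107 on chromosome 7 in shEzh2.556 replicate 1, and from 0.0182 on chromosome 17 to 0.065 on chromosome 4 in replicate 2. Among the brighter genes chromosome 13 was lowest on both arrays, at -0.1995 and -0.0959, and the highest medians were -0.0479 on chromosome 19 and -0.0154 on chromosome 12. After quantile normalization chromosome 13 was lowest among the brighter genes in replicate 1, at -0.0971, and chromosome 10 in replicate 2, at -0.0255. The 10 secretory genes lie on chromosomes 2, 4, 5, 6, 7, 15 and 17, so their rise was not confined to one region.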

How the data were processed

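Biotin-labelled total RNA of 6 samples was measured on Affymetrix Mouse Gene 1.0 ST arrays, 1 array each, per the labels. The authors deposited 1 log2 value per probe set, from 2.3 to 14.22. That the scale is log2 was read from this range. Background correction, normalization and summarization are not given in the sources used here, and with so few arrays the precision is limited. The platform annotation gives 21789 of the 35512 probe sets 1 gene symbol, 1621 several and 12102 none. Chromosomes came from RefSeq (GRCm38.p6) by Entrez identifier, found for 21698 probe sets, and 82 genes without a chromosome were kept. For 999 genes with several probe sets, the one with the highest mean was used.

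A single limma model (version 3.58.1, R 4.3.3) without covariates covered the 3 groups of 2 arrays, moderated by empirical Bayes with 8.51 prior degrees of freedom beside 3 residual ones, with Benjamini-Hochberg adjustment over 19938 genes. The fit was tested on simulated data. Group numbers did not pair the samples. The members and the 42 gene lists (932 of 1043 symbols measured) were chosen with earlier results of these data known, and no set test was run. Named genes were the 12 largest rises and falls against premalignant cells without overlap of arrays, the 12 largest hairpin differences in each direction among particular genes, up to 6 members of a list by smallest p, and Ezh2, Ezh1, Eed, Suz12, Cdkn2a, Myc, Mycn, Bcl2, Bcl6, Mdm2, Cd79a, Ptprc and Spn. Predicted genes, receptor segments, olfactory receptors and small RNAs were left out of the ranked parts. Pax5, Ebf1 and Cd79b were given as B cell markers. Il7r, Bmi1, Muc19, Bhlha15, Gpr176, Cdh17, S100a6 and Anxa2 fall outside the rule and were chosen after their values were seen. A comparison of promoter composition between gene groups was void, because 78% of the 19190 genes had a RefSeq promoter entry, below the share required. Alternatives were other scalings, a filter on dim genes, 2-group fits, the replicate number as a block, the mean of probe sets, a variance trend, a fold threshold and leaving out each array. Summaries used pandas 2.3.3 and numpy 2.4.6 under Python 3.11.15, and plots matplotlib 3.10.9.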

Additional observations from a re-analysis of the deposited data

Results flagged for a closer look

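The results below stood out because the tested difference between shEzh2.556 and shEzh2.781 lymphomas passed the threshold, or because signal lay in data that the comparisons did not use. Differences are shEzh2.556 minus shEzh2.781 in log2 units from the limma fit. In all, 1030 genes were particular to shEzh2.556.

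The secretory genes differed by 4.69 (Mucl2), 3.87 (Bpifa2), 4.41 (Prol1), 4.80 (Dcpp1), 5.0 (Dcpp2), 4.18 (Dcpp3), 5.11 (Car6), 4.87 (Pip), 4.46 (Scgb2b27), 4.36 (Scgb1b27) and 0.95 (Muc19), while the acinar factor Bhlha15 differed by -1.08. Other genes higher with shEzh2.556 were Gadd45a at 3.43, Slc15a2 at 2.91, Gpr176 at 2.44, Cdh17 at 2.14, S100a6 at 1.98, Anxa2 at 1.78, Zbtb32 at 1.62 and Aldoa at 0.73. Markers of other cells that were higher were Acta2 at 1.37, Rhd at 1.31, Hmox1 at 0.89 and Ehf at 0.81.

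The neutrophil genes differed by -2.36 (Ngp), -2.32 (Cxcr2), -2.30 (S100a8), -2.17 (Chil3), -2.04 (Lcn2), -2.0 (Mmp8), -2.0 (Retnlg) and -1.83 (Ltf), and Ly6a2 differed by -1.56. Other large differences were -2.98 for Mei4, -2.96 for Rasgef1a, -2.75 for Slc30a4, -2.61 for Plag1, -2.54 for Bst1, -2.15 for Cldn10, -2.10 for Pkp4, -1.93 for Igf1r and -1.43 for Atp1b1.

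Genes of the B lineage differed by -1.89 (Il7r), -1.54 (Cd72), -1.49 (Sox4), -1.02 (Lig4), -0.96 (Rag1), -0.94 (Blk), -0.92 (Slamf7), -0.88 (Rag2), -0.87 (Polm), -0.83 (Mybl1), -0.78 (Cd1d1), -0.74 (Irf4), -0.67 (Xrcc6) and -0.63 (Gfi1). The remaining differences were -1.20 for Cdkn2c, -1.18 for Bmi1, -0.96 for Rfc3, -0.79 for Pcgf5, -0.79 for H2-Q4 and -0.68 for Cdkn1b.

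Outside the named genes, 142 of 13723 probe sets with no single gene symbol were higher in shEzh2.556 lymphomas than in premalignant cells and 628 were lower, at a limma adjusted p below 0.05 over all 35512 probe sets. Both shares are smaller than the 6.85% higher and 11.3% lower of the 19190 genes, so these probe sets were called less often than genes.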

How the results depend on the processing

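Requiring a 2-fold difference reduced the called genes to 653 for shEzh2.556 against premalignant cells, 447 for shEzh2.781 against premalignant cells and 229 between hairpins, and particular genes to 145. Leaving out 1 array at a time gave 1867 to 3511, 1054 to 1968, 684 to 2001 and 410 to 1007 genes in the same order. Every other planned setting kept these counts within 1.5 times, but the genes called were not all the same. After quantile normalization 2786 of 3482, 1874 of 2079, 1921 reduced to 1084, and 646 of 1030 genes kept their call and direction, in the same order. Median centring kept 3214, 1745, 1441 and 832. The replicate numbers did not pair the samples, with correlations of replicate differences of -0.124, -0.0915 and 0.0642 between groups. With the replicate block the counts were 3225, 1995, 1705 and 928. Crossing the shEzh2.556 numbers, an alternative added after the data were seen, gave 3438, 2116, 1977 and 1070.

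Some uncalled values changed sign. Ezh1 was -0.020 after median centring, Eed 0.057 after quantile normalization and 0.055 with the mean of its probe sets, and Ptprc 0.048 after quantile normalization. Leaving out 1 array at a time gave -0.11 to 0.13 for Ezh1, -0.14 to 0.063 for Eed, -0.22 to 0.31 for Cdkn2a, -0.23 to 0.15 for Bcl6, -0.14 to 0.044 for Cd79a and -0.14 to 0.11 for Ptprc. Over all settings for the 125 named genes, 1663 values against premalignant cells kept their direction and side of the threshold, 46 lost the call, 7 gained one and 14 changed sign. For 62 named hairpin differences 838 kept both and 20 lost the call. After quantile normalization Bmi1 and Spn passed the threshold against premalignant cells (adjusted p = 0.0378 and 0.0466). Why these values moved was not tested, apart from the fewer arrays of the reduced fits. Chromosome medians of all genes after quantile normalization lay between -0.0312 and 0.0557 on the shEzh2.556 arrays. Signal over background limits what dim genes can show.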
